A study of Mus musculus with 34 samples.

Results

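Integrins are the receptors through which cells hold on to the matrix around them and to one another, and 26 integrin genes, 6 genes of matrix proteins that integrins bind and Cd44 were followed through spinal cord injury in mice. The 33 genes were chosen by name and sorted by role into 8 integrin subunits of leukocytes, 18 integrin subunits that bind matrix, 6 matrix ligands and Cd44, the receptor of the matrix sugar hyaluronan. Of these, 30 had a probe set that names a single gene, out of 18193 such genes on the array, and where a gene had several probe sets the brightest over all 34 arrays was read. A gene was tested where its log2 signal was above 4 on at least 4 arrays, which 23 of the 30 genes and 11993 of all genes passed. Itgad, Itga11 and Spp1 were not analysed here.

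The samples were spinal cord of knockout (KO) mice that lack trkB.T1, a kinase-free form of the BDNF receptor made from the Ntrk2 gene, and of wild type (WT) mice. KO cord was read in 4 sham samples, from animals that had surgery with the cord left intact, and in 4, 5 and 4 samples at 1, 3 and 7 days after spinal cord injury. WT cord was read in 4 sham samples and in 5, 4 and 4 samples at the same days. The knockout is not described further in the sources used here, which give no strain, sex or age, and they do not say whether each array is a separate animal, so p-values measure the spread between samples, which may in part be technical.

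An integrin is a pair of an alpha and a beta subunit, and the pairing sets what it binds. On leukocytes the beta2 chain, encoded by Itgb2, pairs with alphaL, alphaM, alphaX or alphaD, and these receptors let neutrophils, monocytes and microglia stop on vessel walls, crawl and take up complement-coated debris. On most other cells beta1 and the alphav integrins bind collagen, laminin, fibronectin and vitronectin, and link them to actin inside the cell. In injured cord, leukocytes enter from blood, microglia and macrophages clear myelin, and fibroblasts lay down matrix in the lesion.

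The arrays read nervous tissue: none of 6 neuron, 5 oligodendrocyte and 6 astrocyte genes with a probe set lay under log2 4 throughout a group, and the neuron list mean lay between 11.01 and 13.08. Skeletal muscle RNA was present too and uneven, with a mean over 7 muscle genes of 3.19 to 13.84 on single arrays. Its group mean was 9.64 in KO sham cord and 4.69, 8.14 and 4.77 at days 1, 3 and 7. In WT cord it was 6.26 in sham and 4.81, 8.37 and 6.49. The part of muscle RNA in the results was not tested. A library went against its label. An Ntrk2 probe set that stood at 3.12 to 4.94 on the other KO arrays and at 10.01 to 10.86 in WT cord gave 9.46 in the library labelled KO sham replicate 2. WT day 3 replicate 2 stood apart from its group, with a homeostatic microglia list mean of 6.88, where its other arrays had 8.17 to 8.47, and results whose call changed without either library are also given without it. KO day 3 replicate 3 differed from its group too. Its neutrophil list mean was 9.91, where the others had 6.88 to 8.29, and its skeletal muscle list mean was 13.84. Because whole cord was measured, fewer cells of a type and less RNA per cell cannot be told apart.

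After injury more of the tested genes of the family rose than fell, in both genotypes and at each day. In KO cord 10 of 23 rose and 4 fell at day 1 against sham, 16 rose and 3 fell at day 3, and 12 rose and 3 fell at day 7 (limma, adjusted p under 0.05). Injury called 51.1%, 69.7% and 54.5% of all 11993 genes at those days in KO cord, with 23.7%, 30.9% and 23.5% higher and 27.3%, 38.8% and 31% lower. In WT cord 11 of 23 rose and 2 fell at day 1, 14 rose and 2 fell at day 3, and 16 rose and 2 fell at day 7. The WT background was 59.5%, 66.9% and 59.1% called, with 27.1%, 29.5% and 25.8% higher and 32.5%, 37.4% and 33.3% lower.

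The size of the shift was read from medians over the tested genes. The median log2 difference from sham over the 23 genes was 0.47, 1.29 and 0.70 in KO cord at days 1, 3 and 7, beside -0.05, -0.06 and -0.06 over all genes. In WT cord it was 0.54, 1.06 and 1.35, beside -0.05, -0.06 and -0.06 over all genes. The arrays of the injured and the sham group did not overlap for 14, 16 and 15 of the 23 genes in KO cord, where 55.5%, 60.8% and 62.6% of all genes did not overlap. In WT cord this held for 15, 16 and 18 genes, where 53.2%, 57.5% and 57.5% of all genes did not overlap. These counts and medians rest in part on the filter. Itgal, Itgax, Itga7 and Thbs4 had no sham array above log2 4 and passed through injured arrays alone, Itga8 and Thbs1 had 1 and 2 such sham arrays, and Itgae passed through 4 sham arrays with no injured array above 4, so a difference in that direction was built into their choice.

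**Figure D1:**
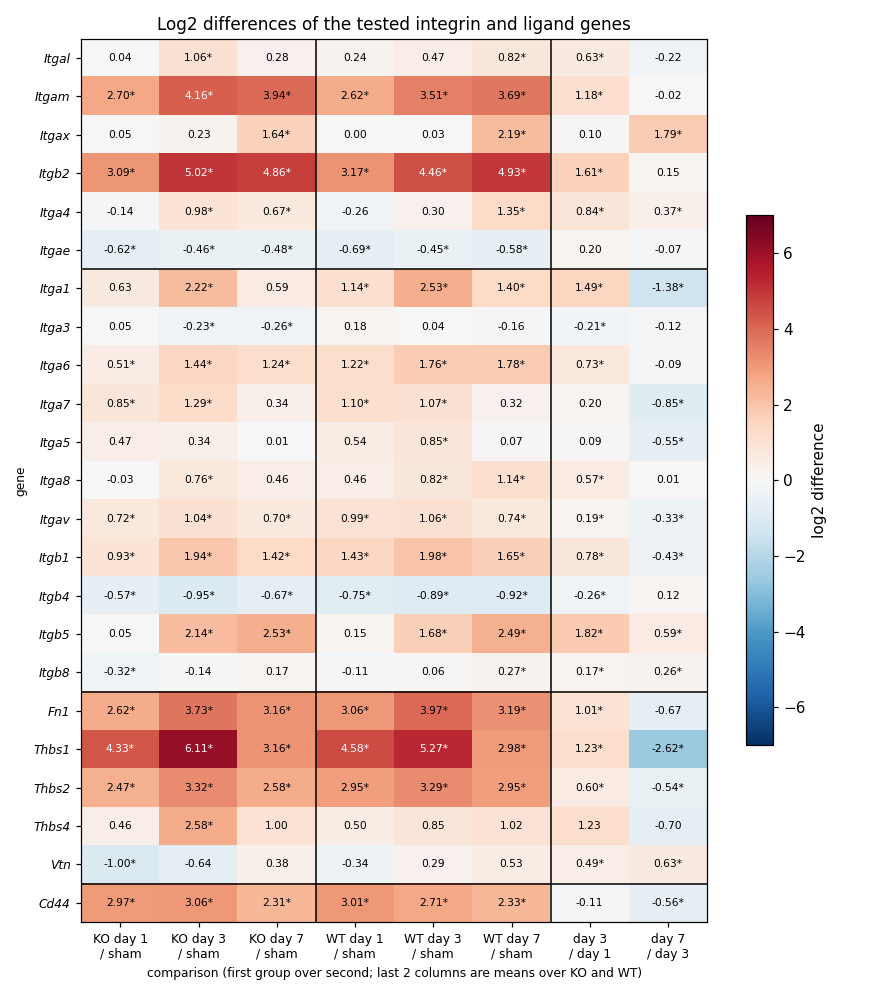
Log2 differences of the 23 tested genes (rows, by role from leukocyte integrins at the top to Cd44 at the bottom) in 6 comparisons of injured with sham cord and 2 comparisons between days; an asterisk marks an adjusted p under 0.05. Itgb2, Itgam, Thbs1, Thbs2, Fn1 and Cd44 are higher in all 6 injury comparisons, and Itgb4 and Itgae are lower in all 6, Itgae being a gene that passed the filter through sham arrays alone.

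Among the leukocyte integrins, Itgb2, the beta chain that the family shares, and Itgam, the alphaM chain of complement receptor CR3, rose at each day after injury in both genotypes. Itgax, the alphaX chain of CR4, passed the test at day 7 alone. Itgam and Itgax both lie on chromosome 7 and pair with the same beta chain, so the 250 bases before the transcription start of each are shown here from RefSeq (GRCm38.p6, plus strand, 5′ to 3′). Capitals mark the letters GAGGAA, found within sites of PU.1 and other ETS factors, TGANTCA, the AP-1 motif, and GGGCGG, the Sp1 GC box, searched on both strands and the matches shown do not overlap.
Itgam, chr7:128062390-128062639: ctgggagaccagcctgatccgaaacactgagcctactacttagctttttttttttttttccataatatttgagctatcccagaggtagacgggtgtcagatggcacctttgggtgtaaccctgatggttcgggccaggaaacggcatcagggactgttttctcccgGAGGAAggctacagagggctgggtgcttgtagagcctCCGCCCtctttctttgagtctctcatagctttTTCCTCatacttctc
Itgax, chr7:128129300-128129549: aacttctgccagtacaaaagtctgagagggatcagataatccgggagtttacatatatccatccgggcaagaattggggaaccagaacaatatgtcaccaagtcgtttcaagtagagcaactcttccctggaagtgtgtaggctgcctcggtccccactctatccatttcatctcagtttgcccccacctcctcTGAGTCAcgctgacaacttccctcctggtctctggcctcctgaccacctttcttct
The Itgam window held GAGGAA at 84 to 79 bases before the start and, on the other strand, at 15 to 10 bases before it, and GGGCGG on the other strand at 47 to 42 bases. The Itgax window held TGANTCA at 56 to 50 bases before the start and neither of the other motifs. Of 32851 promoters of this length, 23.3% held GAGGAA, 6.75% held TGANTCA and 32.7% held GGGCGG. Among the 23 genes of the family with a promoter in the RefSeq table, which are not the 23 tested genes, these motifs were held by 11, 1 and 7. A gene was counted if any promoter listed for it held the motif. The shares are of single promoters, so the counts and the shares are not like for like. These matches describe the letters and say nothing of which factor was bound.

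Itgb2 gave the largest difference of the integrin genes. In KO cord Itgb2 stood at 5.50, 5.15, 5.54 and 5.60 in sham animals, 8.75, 8.85, 8.11 and 8.45 on day 1, 10.34, 10.03, 10.81, 10.95 and 10.19 on day 3, and 10.46, 10.31, 10.20 and 10.24 on day 7. In WT cord Itgb2 stood at 5.41, 5.82, 5.29 and 5.87 in sham animals, 8.85, 8.85, 8.34, 9.16 and 8.63 on day 1, 10.28, 9.76, 10.17 and 10.01 on day 3, and 10.52, 10.35, 10.44 and 10.78 on day 7. Every injured array lay above every sham array, and the step to day 1 was followed by a further step to day 3. KO cord was 8.53-fold, 32.4-fold and 29.0-fold above KO sham at days 1, 3 and 7, and WT cord was 8.99-fold, 22.0-fold and 30.4-fold above WT sham (limma, adjusted p between 4e-19 and 1.77e-13). Over both genotypes day 3 was higher than day 1 by 1.61 ± 0.13 on the log2 scale (SE, adjusted p = 1.98e-11), and day 7 differed from day 3 by 0.15 (95% interval -0.12 to 0.42, adjusted p = 0.343).

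Itgam followed the same course. In KO cord Itgam stood at 4.27, 4.88, 4.65 and 4.71 in sham animals, 7.76, 7.35, 6.82 and 7.37 on day 1, 8.74, 8.39, 9.0, 9.03 and 8.79 on day 3, and 8.69, 8.61, 8.47 and 8.52 on day 7. In WT cord Itgam stood at 5.08, 5.03, 4.65 and 4.74 in sham animals, 7.74, 7.56, 7.20, 7.39 and 7.60 on day 1, 8.50, 8.42, 8.46 and 8.16 on day 3, and 8.49, 8.56, 8.64 and 8.59 on day 7. No injured array overlapped a sham array. KO cord was 6.49-fold, 17.9-fold and 15.4-fold above sham at days 1, 3 and 7, and WT cord 6.16-fold, 11.4-fold and 12.9-fold (adjusted p between 2.88e-19 and 3.69e-14).

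Itgax marks dendritic cells and the lipid-laden or disease-associated state of microglia and macrophages. In KO cord Itgax stood at 2.17, 2.17, 2.17 and 2.17 in sham animals, 2.39, 2.17, 2.17 and 2.17 on day 1, 2.17, 2.17, 2.79, 2.52 and 2.33 on day 3, and 4.60, 3.98, 4.15 and 2.52 on day 7. In WT cord Itgax stood at 2.17, 2.17, 2.17 and 2.17 in sham animals, 2.17, 2.17, 2.17, 2.17 and 2.17 on day 1, 2.25, 2.17, 2.19 and 2.17 on day 3, and 4.71, 4.16, 4.56 and 4.01 on day 7. At sham, day 1 and day 3 every array lay under log2 4, near the lowest value on the array, and at day 7 it stood higher on 7 of 8 arrays, the exception being KO day 7 replicate 4 at 2.52. The rise at day 7 passed the test in KO cord at 1.64 ± 0.23 and in WT cord at 2.19 ± 0.23 on the log2 scale (SE, adjusted p = 1.49e-06 and 7.68e-09). Since sham values lie under the floor, the fold is bounded only as at least 1.14-fold in KO cord and at least 1.28-fold in WT cord, and with values under 4 set to 4 the KO rise did not pass (0.19, adjusted p = 0.134). All day 3 arrays also lay under log2 4, and with values under 4 set to 4 day 7 was above day 3 by 0.27 on the log2 scale over both genotypes (adjusted p = 0.00302).

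Itga4 encodes the alpha4 chain of VLA-4, which binds VCAM1 and fibronectin and serves in the entry of monocytes and lymphocytes into the central nervous system. In KO cord Itga4 stood at 4.08, 4.58, 4.63 and 4.60 in sham animals, 4.61, 3.91, 4.21 and 4.59 on day 1, 5.47, 4.98, 6.0, 5.94 and 4.85 on day 3, and 5.21, 5.14, 5.07 and 5.14 on day 7. In WT cord Itga4 stood at 4.61, 4.61, 4.61 and 4.62 in sham animals, 4.23, 4.47, 4.44, 4.12 and 4.52 on day 1, 5.36, 4.31, 5.08 and 4.91 on day 3, and 5.93, 5.78, 5.79 and 6.33 on day 7. In KO cord the highest values came at day 3, although the arrays at 4.98 and 4.85 there lay below every day 7 array. In WT cord the highest values came at day 7. Its rise in KO cord was 0.98 ± 0.20 on day 3 and 0.67 ± 0.22 on day 7 (adjusted p = 0.000121 and 0.0103). In WT cord its day 7 rise was 1.35 ± 0.22 (adjusted p = 6.65e-06). The KO day 7 rise was 0.54 without KO sham replicate 1 (adjusted p = 0.0506), and the WT day 3 difference, 0.30 with adjusted p = 0.216, was 0.51 and passed without WT day 3 replicate 2 (adjusted p = 0.0405). With quantile normalisation the KO day 7 rise was 0.50 and did not pass (adjusted p = 0.0512). The other probe set above the filter was called higher at WT day 3, at 0.56. Between days 3 and 7, over both genotypes, that probe set gave 0.08 and was not called.

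Itgal, the alphaL chain of LFA-1, stayed near the floor. It stood at 4.23, 3.64, 5.43, 4.63 and 3.48 at day 3 in KO cord and at 3.94, 3.58, 4.17 and 3.95 at day 7 in WT cord, and at no more than 3.82 in every other group. It rose in those 2 groups, by 1.06 ± 0.23 and 0.82 ± 0.24 (adjusted p = 0.000179 and 0.00493), and with values under 4 set to 4 the WT rise became 0.04 and did not pass. Itgae, the alphaE chain that binds E-cadherin, was lower in all 6 injury comparisons, by 0.45 to 0.69, but it passed the filter through 4 sham arrays alone and no injured array lay above log2 4, so that its calls carry little weight, and with values under 4 set to 4 its fall passed in KO cord at day 3 alone. Without WT day 3 replicate 2 the WT day 3 difference was -0.34 (adjusted p = 0.0516). Itgb7, the partner of alphaE and alpha4, stood at 2.17 to 2.73 on all arrays and was not tested.

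Marker lists of cell types were read beside these genes, and not all of them rose. As background for these and later marker counts, 23.5% to 30.9% of all genes were higher after injury in KO cord and 25.8% to 29.5% in WT cord. The 10 macrophage genes rose in 8, 10 and 9 cases in KO cord and in 9, 10 and 10 cases in WT cord at days 1, 3 and 7. Their mean per array lay at 7.89 to 8.56, 9.64 to 10.73 and 9.86 to 9.93 at those days in KO cord against 4.80 to 5.55 in KO sham, and at 8.15 to 8.89, 8.87 to 9.93 and 9.77 to 10.46 in WT cord against 5.53 to 5.72 in WT sham. Of 8 homeostatic microglia genes, 1, 5 and 7 rose and 4, 0 and 0 fell in KO cord, and 2, 5 and 6 rose and 2, 1 and 0 fell in WT cord. Of 8 tested neutrophil genes 1, 2 and 2 rose in either genotype. All 8 lymphocyte genes with a probe set, including Cd3e, Cd4 and Ms4a1, lay under log2 4 on every array. The part that cell numbers had in the integrin results was not tested.

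**Figure D2:**
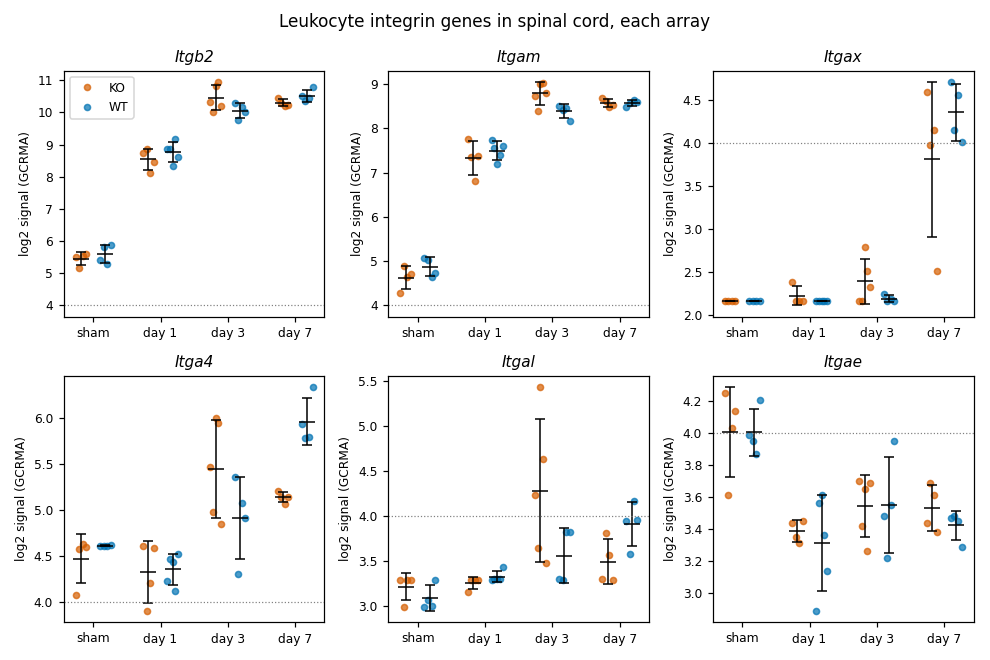
Log2 signal of the 6 tested leukocyte integrin genes on each array (points), with group means and SD (bars), at sham, day 1, day 3 and day 7 in KO (left of each pair) and WT cord; the dotted line is log2 4. Itgb2 and Itgam step up by day 1, Itgax at day 7, and the group mean of Itga4 is highest at day 3 in KO cord and at day 7 in WT cord.

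The integrins that bind matrix held genes that rose and genes that fell. Of 11 tested genes, 4, 7 and 4 rose and 2, 2 and 2 fell in KO cord at days 1, 3 and 7, and 5, 8 and 7 rose and 1, 1 and 1 fell in WT cord. Of all genes, 23.7%, 30.9% and 23.5% were higher and 27.3%, 38.8% and 31% lower in KO cord. The WT shares were 27.1%, 29.5% and 25.8% higher and 32.5%, 37.4% and 33.3% lower. For comparison, 2, 4 and 4 of the 6 tested leukocyte integrins rose in KO cord and 2, 2 and 5 in WT cord, with 1 fall in each comparison. The fall was Itgae each time, and the rises at days 3 and 7 include Itgal and Itgax. The filter built the direction of these genes into their choice, as it did for Itga7 among the matrix integrins. The counts of the lists therefore cannot be set against each other. The mean over the 17 matrix integrins with a probe set was 0.18, 0.64 and 0.38 above sham in KO cord and 0.38, 0.68 and 0.55 in WT cord. Over the 7 leukocyte integrins with a probe set it was 0.74, 1.60 and 1.55 in KO cord and 0.72, 1.20 and 1.78 in WT cord. The matrix integrin mean was thus lower at day 7 than at day 3 in both genotypes, and the leukocyte integrin mean was higher at day 7 in WT cord. These list means include genes near the floor, the leukocyte mean includes Itgb2 and Itgam, and no test was made of the difference between the lists. The WT leukocyte mean at day 7 also holds Itgax, at 2.19 above sham, and Itga4, at 1.35, neither called at WT day 3. Itgax passed the filter through day 7 arrays alone, so its direction was built into its choice.

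Itgb1, the beta chain of most receptors for collagen, laminin and fibronectin, rose from day 1, whereas Itgb5, the partner of alphav in a vitronectin receptor, rose from day 3. The 250 bases before their starts are shown side by side (RefSeq, GRCm38.p6, plus strand, capitals as above). No link between these letters and the timing was tested.
Itgb1, chr8:128685404-128685653: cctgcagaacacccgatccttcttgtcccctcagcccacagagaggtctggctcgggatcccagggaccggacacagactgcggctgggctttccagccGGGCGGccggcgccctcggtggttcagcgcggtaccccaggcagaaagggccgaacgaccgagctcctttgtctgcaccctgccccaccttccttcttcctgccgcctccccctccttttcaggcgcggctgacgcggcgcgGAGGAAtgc
Itgb5, chr16:33829415-33829664: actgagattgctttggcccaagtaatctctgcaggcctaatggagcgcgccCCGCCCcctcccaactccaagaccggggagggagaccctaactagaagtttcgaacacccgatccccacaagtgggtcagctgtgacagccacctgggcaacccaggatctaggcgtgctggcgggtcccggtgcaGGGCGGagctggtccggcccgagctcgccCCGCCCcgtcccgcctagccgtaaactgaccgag
The Itgb1 window held GGGCGG at 151 to 146 bases and GAGGAA at 9 to 4 bases before the start. The Itgb5 window held GGGCGG at 63 to 58 bases and, on the other strand, at 199 to 194 and at 34 to 29 bases before the start, and neither other motif.

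In KO cord Itgb1 stood at 7.85, 7.58, 7.97 and 7.73 in sham animals, 9.01, 8.67, 8.44 and 8.74 on day 1, 9.71, 9.52, 10.21, 10.01 and 9.18 on day 3, and 9.25, 9.25, 9.09 and 9.20 on day 7. In WT cord Itgb1 stood at 7.65, 7.73, 8.06 and 7.24 in sham animals, 9.20, 8.98, 9.07, 9.27 and 9.01 on day 1, 9.62, 9.72, 9.79 and 9.47 on day 3, and 9.37, 8.99, 9.21 and 9.72 on day 7. Injured arrays lay above all sham arrays of their genotype. The rise was 1.91-fold, 3.85-fold and 2.67-fold in KO cord at days 1, 3 and 7 and 2.70-fold, 3.94-fold and 3.14-fold in WT cord (adjusted p between 4.01e-11 and 7.32e-05). Over both genotypes day 3 was above day 1 by 0.78 ± 0.12 and day 7 below day 3, at -0.43 ± 0.12 (adjusted p = 2.29e-06 and 0.00507). Of 2 further probe sets of Itgb1 above the filter, 1 gave like values and the same calls, while the other gave 0.49, 1.32 and 0.65 in KO cord and 0.21, 0.63 and 0.44 in WT cord and did not pass at day 1 in either genotype or at day 7 in WT cord. A rise at day 1 thus rests on 2 of 3 probe sets.

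In KO cord Itgb5 stood at 9.04, 8.79, 8.97 and 8.99 in sham animals, 8.89, 8.93, 9.18 and 8.98 on day 1, 11.02, 10.95, 11.13, 11.39 and 10.97 on day 3, and 11.59, 11.43, 11.36 and 11.51 on day 7. In WT cord Itgb5 stood at 9.0, 8.88, 9.14 and 9.21 in sham animals, 9.28, 9.26, 9.27, 9.27 and 8.96 on day 1, 10.88, 10.09, 11.09 and 10.90 on day 3, and 11.44, 11.48, 11.51 and 11.75 on day 7. At day 1 the arrays overlapped those of sham cord, and at days 3 and 7 all lay above them. KO cord was 4.42-fold and 5.76-fold above sham at days 3 and 7, and WT cord 3.21-fold and 5.62-fold (adjusted p between 4.98e-15 and 2.94e-11). The day 1 differences were 0.05 in KO cord (95% interval -0.24 to 0.33) and 0.15 in WT cord (-0.12 to 0.42). Itgb5 was the gene of the family with the smallest p between days 1 and 3, at 1.82 ± 0.09 (adjusted p = 1.17e-15), and it rose further to day 7, by 0.59 ± 0.10 (adjusted p = 1.32e-05).

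Itgav, the alpha chain that pairs with beta1, beta3, beta5, beta6 or beta8 and binds the RGD sequence of vitronectin and fibronectin, rose in all 6 comparisons. It stood at 12, 11.86, 12 and 11.90 in KO sham cord and at 12.85, 12.95, 13.01, 13.21 and 12.87 at day 3, and at 11.91, 11.90, 11.88 and 11.85 in WT sham cord and 13.02, 12.78, 13 and 12.95 at day 3. The rise was between 0.70 and 1.06 on the log2 scale over the 6 comparisons, with adjusted p no higher than 3.18e-09. It was smaller at day 7 than at day 3, by -0.33 ± 0.05 (adjusted p = 4.86e-06). Its other probe set above the filter gave larger rises, 1.51, 2.31 and 0.82 in KO cord and 1.82, 2.45 and 1.30 in WT cord, and a larger fall between days 3 and 7, at -1.32, with the same calls. Of the other RGD-binding alpha chains, Itga8 rose in KO cord at day 3 by 0.76 and in WT cord at days 3 and 7 by 0.82 and 1.14, with all sham arrays except KO sham replicate 1 under log2 4. Its KO day 7 and WT day 1 differences, both 0.46, did not pass, but became 0.56 and passed without KO sham replicate 1 and WT sham replicate 3 (adjusted p = 0.0454 and 0.0366), and also without single arrays of other groups. With values under 4 set to 4 the WT day 3 rise of Itga8 was 0.38 and did not pass (adjusted p = 0.0924). Itga5, the alpha5 chain of the classical fibronectin receptor, rose in WT cord at day 3 by 0.85 ± 0.27 (adjusted p = 0.00792), a group that held 4.54, 6.24, 4.79 and 4.50. Without replicate 2, the array at 6.24, the difference was 0.44 (adjusted p = 0.0796). The WT day 1 difference of Itga5, 0.54, did not pass, but did without WT day 1 replicate 4 or, through the shared spread, without WT day 3 replicate 2 (adjusted p = 0.0319 and 0.0161).

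Among the laminin-binding alpha chains, Itga6, which pairs with beta1 or beta4, rose in all 6 comparisons. In KO cord Itga6 stood at 8.98, 8.93, 9.17 and 9.23 in sham animals, 9.75, 9.62, 9.32 and 9.67 on day 1, 10.44, 10.44, 10.55, 10.96 and 10.23 on day 3, and 10.35, 10.19, 10.38 and 10.37 on day 7. In WT cord Itga6 stood at 8.54, 8.83, 8.75 and 8.55 in sham animals, 10.01, 9.76, 9.84, 10.02 and 9.83 on day 1, 10.54, 10.36, 10.44 and 10.38 on day 3, and 10.57, 10.17, 10.35 and 10.69 on day 7. No injured array fell within the range of its sham group. The rise was 1.43-fold, 2.72-fold and 2.37-fold in KO cord and 2.33-fold, 3.39-fold and 3.42-fold in WT cord (adjusted p between 5.79e-13 and 0.001). At day 1 in KO cord its other probe set gave 0.29 on the log2 scale and was not called, where the brightest gave 0.51. The KO day 1 rise thus rests on 1 of 2 probe sets, while the other comparisons with sham had the same calls on both.

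Itga7, known as the laminin receptor of skeletal muscle, rose at days 1 and 3, and its day 7 differences, 0.34 in KO cord and 0.32 in WT cord, did not pass. The KO rise was 0.85 ± 0.23 and 1.29 ± 0.22 at days 1 and 3, and the WT rise 1.10 ± 0.22 and 1.07 ± 0.23 (adjusted p between 8.9e-06 and 0.00371), with every sham array under log2 4. With values under 4 set to 4 the KO day 1 rise was 0.32 and did not pass (adjusted p = 0.202). KO day 3 replicate 3, the highest array at 5.88, also had the highest skeletal muscle list mean, 13.84. At day 1 in KO cord, where Itga7 stood at 4.32, 4.38, 4.29 and 4.31, all 7 skeletal muscle genes were lower than in sham. The part of muscle RNA in the Itga7 results was not tested. Itga3 fell slightly in KO cord at days 3 and 7, by 0.23 and 0.26 (adjusted p = 0.0318 and 0.0296), and neither fall passed without the library labelled KO sham replicate 2 (-0.20 and -0.23, adjusted p = 0.0972 and 0.0876). The falls were also lost without KO sham replicate 3 or 4, at day 3 without KO day 3 replicate 1 or 4 and at day 7 without KO day 7 replicate 1 or 4, with adjusted p up to 0.136.

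Itga1, the alpha1 chain that with beta1 binds collagen, peaked at day 3. In KO cord Itga1 stood at 3.82, 3.92, 4.17 and 4.67 in sham animals, 4.36, 4.81, 4.71 and 5.22 on day 1, 6.06, 6.07, 7.03, 7.36 and 5.32 on day 3, and 4.53, 4.51, 5.12 and 4.77 on day 7. In WT cord Itga1 stood at 3.33, 4.05, 4.24 and 3.02 in sham animals, 4.72, 4.70, 4.81, 5.22 and 4.53 on day 1, 6.06, 6.59, 6.22 and 5.89 on day 3, and 5.09, 4.72, 5.31 and 5.13 on day 7. Day 3 arrays lay above all arrays of the other times in both genotypes. The day 3 rise was at least 4.47-fold in KO cord and at least 4.35-fold in WT cord (adjusted p = 1.87e-07 and 8.11e-08), and day 7 was below day 3, at -1.38 ± 0.22 over both genotypes (adjusted p = 8.29e-06). The differences at days 1 and 7 passed in WT cord, at 1.14 and 1.40, and did not in KO cord, at 0.63 and 0.59 (95% intervals -0.01 to 1.27 and -0.05 to 1.23). The genotype difference in these responses did not pass either (adjusted p = 0.951 at day 1 and 1 at day 7).

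Itgb4, the beta chain that with alpha6 anchors cells to laminin, fell in all 6 comparisons while its partner Itga6 rose. In KO cord Itgb4 stood at 6.47, 6.64, 6.52 and 6.67 in sham animals, 5.99, 5.88, 6.22 and 5.90 on day 1, 5.30, 5.62, 5.88, 5.90 and 5.42 on day 3, and 5.88, 5.93, 5.90 and 5.91 on day 7. In WT cord Itgb4 stood at 6.52, 6.35, 6.88 and 6.65 in sham animals, 6.07, 5.90, 5.77, 5.88 and 5.63 on day 1, 5.68, 5.39, 5.90 and 5.88 on day 3, and 5.90, 5.90, 5.37 and 5.53 on day 7. Every injured array lay below the sham arrays of its genotype. It fell by 0.57, 0.95 and 0.67 in KO cord at days 1, 3 and 7 and by 0.75, 0.89 and 0.92 in WT cord (adjusted p between 3.46e-07 and 0.00122). Itgb8, whose product with alphav activates TGF-beta, moved little: it fell by 0.32 at day 1 in KO cord and rose by 0.27 at day 7 in WT cord (adjusted p = 0.00327 and 0.00713), and the other 4 differences lay between -0.14 and 0.17.

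The remaining matrix integrins were under the filter. Itga2, Itga10, Itga2b, the platelet alphaIIb chain, Itga9 and Itgb6 did not exceed 3.50 on any array. Itgb3, the beta3 chain of platelets, macrophages and new vessels, exceeded 4 on 1 array, KO day 3 replicate 3 at 4.76, with KO day 3 replicate 4 next at 3.90 and all others at no more than 3.41.

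**Figure D3:**
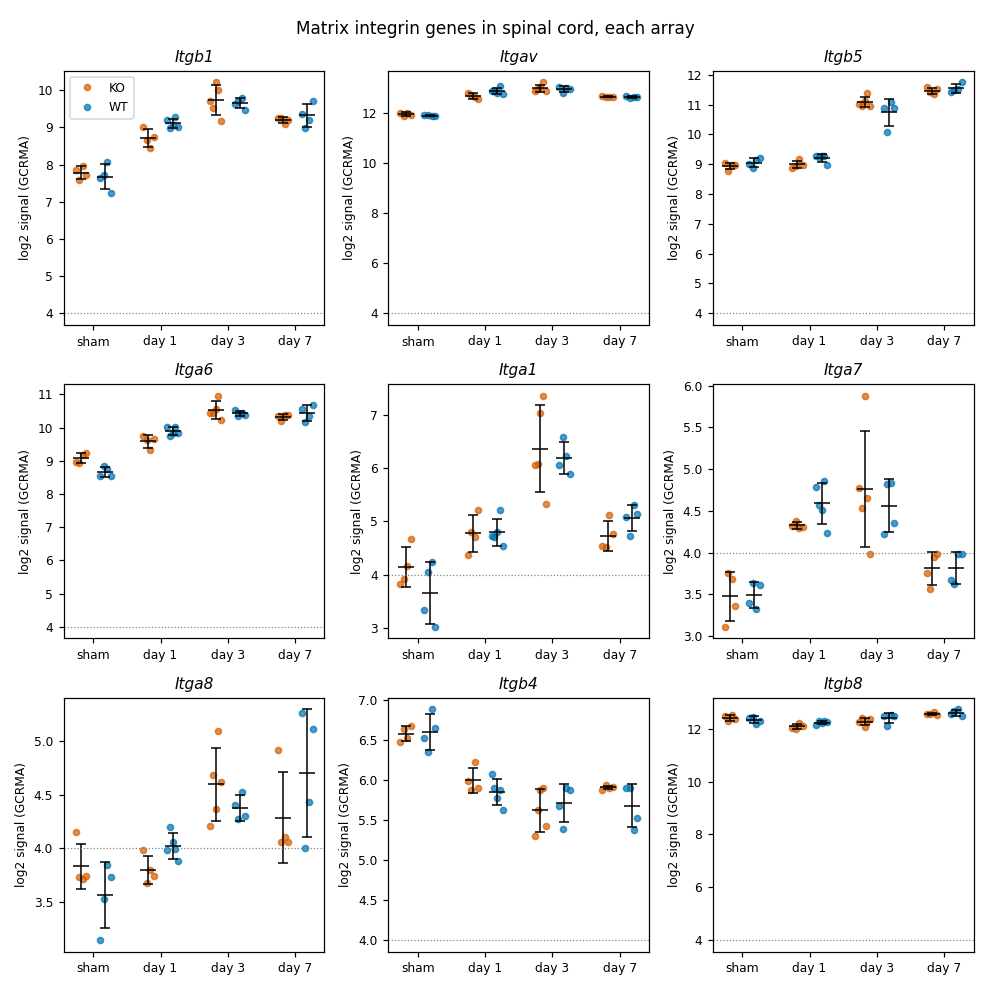
Log2 signal of 9 matrix integrin genes on each array (points), with group means and SD (bars), at sham, day 1, day 3 and day 7 in KO (left of each pair) and WT cord; the dotted line is log2 4. Itgb5 is near its sham level at day 1 and higher at days 3 and 7, Itga1 peaks at day 3, and Itgb4 is below sham on every injured array.

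The matrix ligands included the largest difference of the family. Of 5 tested genes, 3, 4 and 3 rose in KO cord at days 1, 3 and 7, with 1 fall at day 1, and 3, 3 and 3 rose in WT cord. Of all genes, 23.5% to 30.9% were higher after injury in KO cord and 25.8% to 29.5% in WT cord. Thbs1, thrombospondin-1, a secreted matrix protein that activates TGF-beta and promotes synapse formation by astrocytes, had the highest difference of the family at days 1 and 3. In KO cord Thbs1 stood at 4.0, 2.76, 3.54 and 3.54 in sham animals, 8.51, 8.09, 6.57 and 7.99 on day 1, 9.03, 8.85, 10.09, 11.05 and 8.81 on day 3, and 6.78, 6.92, 6.46 and 6.32 on day 7. In WT cord Thbs1 stood at 2.76, 3.13, 4.45 and 3.67 in sham animals, 8.46, 7.85, 7.42, 8.61 and 8.10 on day 1, 8.98, 8.78, 9.30 and 8.03 on day 3, and 6.56, 5.01, 7.09 and 7.28 on day 7. The highest sham array, 4.45, lay below every injured array, and day 7 arrays lay below those of day 3. The rise was at least 13.8-fold, 47.4-fold and 6.15-fold in KO cord and at least 15.7-fold, 25.3-fold and 5.17-fold in WT cord (adjusted p between 4.03e-12 and 9.95e-06). Day 7 was below day 3, at -2.62 ± 0.34 over both genotypes (adjusted p = 5.01e-07). The other Thbs1 probe set gave smaller log2 differences from sham with the same calls, 3.33, 5.15 and 2.30 in KO cord and 3.74, 4.51 and 2.25 in WT cord.

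Fn1, fibronectin, varied widely in sham cord. In KO cord Fn1 stood at 9.15, 6.74, 9.25 and 8.70 in sham animals, 11.43, 11.32, 10.74 and 10.83 on day 1, 12.13, 11.71, 12.48, 12.86 and 11.77 on day 3, and 11.53, 11.52, 11.68 and 11.76 on day 7. In WT cord Fn1 stood at 6.52, 7.69, 10.10 and 8.08 in sham animals, 11.23, 11.19, 11, 11.47 and 10.92 on day 1, 12.11, 12.03, 12.47 and 11.66 on day 3, and 11.48, 10.28, 11.25 and 12.15 on day 7. Sham arrays spread over 6.52 to 10.10, and all injured arrays lay above them. Its lowest values in sham cord, 6.74 in the library labelled KO sham replicate 2 and 6.52 in WT sham replicate 1, fell on the arrays with the lowest fibroblast list means, 6.34 and 6.07, whereas the other sham arrays had 8.52 to 9.07. The rise was 6.14-fold, 13.3-fold and 8.94-fold in KO cord and 8.36-fold, 15.7-fold and 9.13-fold in WT cord (adjusted p between 1.06e-07 and 0.000114). Without the library labelled KO sham replicate 2 the KO differences were 2.05, 3.16 and 2.59 on the log2 scale, in place of 2.62, 3.73 and 3.16, and each passed. Without WT sham replicate 3, the array at 10.10, the WT differences were 3.73, 4.64 and 3.86, in place of 3.06, 3.97 and 3.19, and each passed.

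The 7 fibroblast genes rose in 0, 6 and 6 cases in KO cord and in 4, 4 and 7 cases in WT cord. Their mean per array in KO cord was 7.26 to 8.86 at day 1, 9.48 to 11.70 at day 3 and 10.23 to 10.63 at day 7, against 6.34 to 9.07 in KO sham. In WT cord it was 8.83 to 9.57, 9.42 to 10.62 and 9.89 to 11.38, against 6.07 to 9.07 in WT sham. The part of fibroblast RNA in the ligand results was not tested.

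Thbs2, thrombospondin-2, rose in all 6 comparisons, 5.52-fold, 9.99-fold and 5.97-fold in KO cord and 7.75-fold, 9.80-fold and 7.72-fold in WT cord (adjusted p between 1.22e-15 and 1.06e-11). In KO cord Thbs2 stood at 6.15, 5.81, 6.24 and 5.80 in sham animals, 8.60, 8.69, 8.50 and 8.07 on day 1, 9.39, 9.23, 9.35, 9.51 and 9.13 on day 3, and 8.66, 8.57, 8.60 and 8.48 on day 7. In WT cord Thbs2 stood at 5.80, 5.90, 6.40 and 5.36 in sham animals, 8.91, 8.81, 8.78, 8.85 and 8.74 on day 1, 9.27, 8.74, 9.34 and 9.28 on day 3, and 8.71, 8.36, 8.75 and 9.44 on day 7. Its brightest probe set was lower at day 7 than at day 3, at -0.54 ± 0.13 (adjusted p = 0.00113), but the other 2 probe sets of the gene gave 0.32 ± 0.21 and 0.52 ± 0.19, the second of them higher past the threshold (adjusted p = 0.0333). The direction between days 3 and 7 is therefore not settled by these arrays, while all 3 probe sets rose in each comparison with sham. The other 2 rose less, by 1.12 to 1.38, 1.93 to 1.98 and 1.98 to 2.14 on the log2 scale in KO cord and by 1.97 to 2.04, 1.81 to 1.87 and 2.51 to 2.63 in WT cord, where the brightest gave 2.47, 3.32 and 2.58 and 2.95, 3.29 and 2.95.

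Vtn, vitronectin, the ligand of the alphav integrins, was the ligand that fell. In KO cord Vtn stood at 9.72, 8.34, 9.51 and 9.36 in sham animals, 8.40, 8.21, 8.01 and 8.30 on day 1, 8.48, 8.59, 8.55, 8.80 and 8.56 on day 3, and 9.44, 9.67, 9.74 and 9.59 on day 7. In WT cord Vtn stood at 8.12, 8.47, 9.83 and 8.73 in sham animals, 8.54, 8.79, 8.44, 8.31 and 8.17 on day 1, 8.93, 8.44, 9.18 and 9.75 on day 3, and 9.91, 8.45, 9.10 and 9.82 on day 7. It fell in KO cord at day 1, by 1.00 ± 0.31 (adjusted p = 0.00942), and the KO sham arrays overlapped those of day 1 through the library labelled KO sham replicate 2, at 8.34. Without that library the difference was -1.30 at day 1 and -0.94 at day 3, and both passed (adjusted p = 0.00134 and 0.00683), against -0.64 at day 3 with it (adjusted p = 0.0567). The day 3 difference also passed when any of 5 WT arrays (sham replicates 1 and 3, day 3 replicates 2 and 4, day 7 replicate 2) was left out of the shared spread, with adjusted p of 0.0306 to 0.0483. In WT cord no day passed, with differences of -0.34, 0.29 and 0.53, and WT sham arrays spread over 8.12 to 9.83.

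Thbs4, thrombospondin-4, which is found in muscle and tendon and on astrocytes, was called in KO cord at day 3 alone. Its KO day 3 arrays stood at 8.44, 2.28, 8.52, 2.51 and 2.23, and all other arrays stood at no more than 4.47. The difference was at least 3.46-fold, or 1.79 on the log2 scale with values under 4 set to 4 (adjusted p = 0.0118), beside 2.58 ± 0.91 as measured (adjusted p = 0.0137). As measured it rested on replicates 1 and 3: it was 1.67 without replicate 1 and 1.65 without replicate 3, and passed in neither case (adjusted p = 0.0695 and 0.0718). It did not pass with only the compared groups in the fit (adjusted p = 0.159). Those arrays had skeletal muscle list means of 11.61 and 13.84, above the 4.62 to 5.77 of the other 3 KO day 3 arrays. KO sham arrays had muscle means of 8.05 to 10.91 with Thbs4 at 2.18 to 2.31. The part of muscle RNA in this result was not tested.

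**Figure D4:**
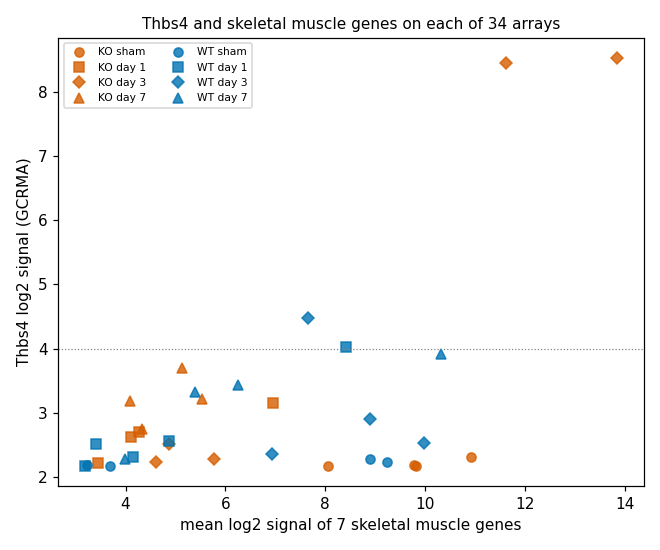
Log2 signal of Thbs4 (vertical axis) against the mean log2 signal of 7 skeletal muscle genes (horizontal axis) on each of the 34 arrays, with colour for genotype and shape for time. KO day 3 replicates 1 and 3, at 8.44 and 8.52, are highest on both axes, while KO sham arrays between 8.05 and 10.91 on the muscle axis have Thbs4 at 2.18 to 2.31.

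Cd44, the hyaluronan receptor of leukocytes, fibroblasts and reactive astrocytes, which also binds osteopontin, rose at day 1, with no further rise called at day 3. In KO cord Cd44 stood at 8.95, 8.42, 8.96 and 8.57 in sham animals, 11.91, 11.77, 11.44 and 11.66 on day 1, 11.62, 11.42, 12.08, 12.22 and 11.59 on day 3, and 11.08, 11.06, 11.02 and 10.97 on day 7. In WT cord Cd44 stood at 8.90, 8.92, 8.83 and 8.81 in sham animals, 11.98, 11.98, 11.49, 12.35 and 11.56 on day 1, 11.56, 11.60, 11.70 and 11.42 on day 3, and 11.09, 11.16, 11.33 and 11.21 on day 7. Injured arrays lay above all sham arrays by more than 2 log2 units. KO cord was 7.85-fold, 8.34-fold and 4.95-fold above sham and WT cord 8.04-fold, 6.52-fold and 5.04-fold (adjusted p between 2.77e-16 and 9.05e-13). Day 3 differed from day 1 by -0.11 (95% interval -0.33 to 0.11), and day 7 was below day 3, at -0.56 ± 0.11 (adjusted p = 0.000164).

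**Figure D5:**
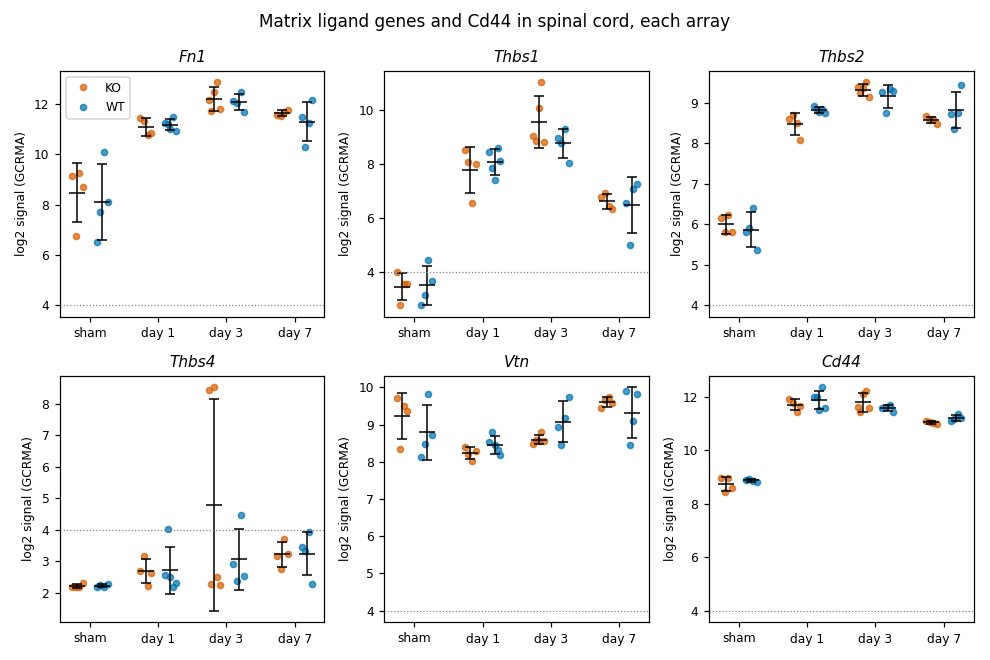
Log2 signal of the 5 tested matrix ligand genes and Cd44 on each array (points), with group means and SD (bars), at sham, day 1, day 3 and day 7 in KO (left of each pair) and WT cord; the dotted line is log2 4. Thbs1 is highest at day 3 and lower again at day 7, Fn1 sham arrays spread over 6.52 to 10.10, and Cd44 is above sham on every injured array.

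Between the injured days, as means over the genotypes, 15 of the 23 genes were higher and 2 lower at day 3 than at day 1, where 60.4% of all genes were called, 26.1% higher and 34.3% lower. At day 7 against day 3, 5 were higher and 8 lower, where 46.2% of all genes were called, 24.8% higher and 21.3% lower. The 5 that were higher at day 7 were Itgax, Itga4, Itgb5, Itgb8 and Vtn, and the 8 that were lower were Itga1, Itga7, Itga5, Itgav, Itgb1, Thbs1, Thbs2 and Cd44. By role, the 6 leukocyte integrins gave 2 higher and 0 lower, the 11 matrix integrins 2 higher and 5 lower, and the 5 ligands 1 higher and 2 lower. These counts do not settle a contrast between the roles. Of the 2 leukocyte genes, Itgax passed the filter through day 7 arrays alone, so its direction was built into its choice. Itga4 gave 0.08 at its second probe set and was not called there. Thbs2, a ligand counted as lower, had probe sets that disagreed. Its rise between days 1 and 3, 0.60, was not called at its other probe sets, at 0.21 and 0.32. Fn1, not counted as lower at day 7, gave -0.67 at its brightest probe set, while its other probe set gave -1.31 and was called lower. Without WT day 3 replicate 2 the 13 calls became 10, as those of Itga4, Itga5 and Vtn were lost. Vtn was also lost there without WT day 7 replicate 1 (adjusted p = 0.0511), and Itga4, at 0.37, without any of 11 arrays of days 3 and 7 (adjusted p up to 0.127). Between days 1 and 3, Vtn, at 0.49, was lost without any of 11 arrays (adjusted p up to 0.119), and Itgb4, at -0.26, without KO day 1 replicate 3 or WT day 3 replicate 2 (adjusted p = 0.0526 and 0.0568). Itgae, at 0.20, was called higher between those days without WT day 3 replicate 2 (0.25, adjusted p = 0.027).

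No gene of the family passed the threshold between the genotypes. None of the 23 was called between KO and WT cord in sham animals or at days 1, 3 or 7, where limma called 0.0667%, 0.859%, 0.0334% and 0.0334% of all genes. At an unadjusted p under 0.05 the counts were 1, 3, 6 and 2 of 23, beside 4.1%, 9.7%, 11.5% and 4.8% of all genes. In sham cord the gene was Itga6, at 8.98, 8.93, 9.17 and 9.23 in KO and 8.54, 8.83, 8.75 and 8.55 in WT cord, a difference of 0.41 ± 0.12 (adjusted p = 0.642) with groups that did not overlap, as for 5.07% of all genes. The 8.93 belongs to the library labelled KO sham replicate 2, which goes against its label. Leaving out each array in turn gave 0.36 to 0.47 for this difference. At day 1 Itgav gave the smallest p, at -0.21 ± 0.07 (adjusted p = 0.209), beside Itga6 at -0.30 and Itgb1 at -0.39. At day 3 Itgal, Itgam, Itgb2, Itga4 and Itgb5 were higher in KO cord, at 0.72, 0.40, 0.41, 0.53 and 0.35, and Itga5 lower, at -0.54, with adjusted p from 0.334 to 0.426. Without WT day 3 replicate 2 these differences were 0.63, 0.41, 0.31, 0.33 and 0.13, and -0.14 for Itga5 (adjusted p from 0.618 to 0.817). At day 7 Itga4 stood at 5.21, 5.14, 5.07 and 5.14 in KO cord and at 5.93, 5.78, 5.79 and 6.33 in WT cord, groups that did not overlap, as for 8.73% of all genes, at -0.82 ± 0.22 (adjusted p = 0.37).

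The response to injury was also compared between the genotypes, as the KO difference from sham minus the WT difference from sham. None of the 23 genes passed at days 1, 3 or 7, where 0.142%, 0% and 0.00834% of all genes were called, and 3, 5 and 3 had an unadjusted p under 0.05, beside 6.34%, 7% and 3.29% of all genes. These comparisons use the library labelled KO sham replicate 2. Without it and WT day 3 replicate 2 none of the 23 genes passed at any of these days. Itga6 came nearest, at day 1, where its rise was 0.51 in KO cord and 1.22 in WT cord, a difference of -0.71 ± 0.17 (adjusted p = 0.0829). It passed without KO day 3 replicate 4 (adjusted p = 0.0257), an array that is in neither group but adds to the shared estimate of spread. With the replicate number as a block it was -0.75 and passed (adjusted p = 0.0327), although the numbers did not pair the samples. For Itgb2 and Itgam the genotype difference in the day 7 response was -0.07 (95% interval -0.62 to 0.48) and 0.25 (-0.20 to 0.70), and the intervals leave room for genotype differences up to those bounds.

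Genes that work with integrins were read for context from lists of the same pathway. Their counts, here and below, stand beside 23.5% to 30.9% of all genes higher after injury in KO cord and 25.8% to 29.5% in WT cord. The shares lower were 27.3% to 38.8% in KO cord and 32.5% to 37.4% in WT cord. Of 20 tested genes of the adhesion machinery, which ties integrins to actin, 12, 13 and 12 rose and 2, 2 and 3 fell in KO cord, and 15, 14 and 13 rose and 3, 2 and 3 fell in WT cord. Fermt3, kindlin-3, which activates integrins in blood cells, rose by 2.10, 3.88 and 3.55 in KO cord and by 2.23, 3.19 and 3.29 in WT cord. Actn1, alpha-actinin-1, and Flna, filamin A, both of which bind beta chains and actin, rose at each day, with Actn1 at 1.83, 1.99 and 1.26 in KO cord and 1.91, 1.94 and 1.27 in WT cord, and Flna at 2.09, 2.89 and 1.82 in KO cord and 2.27, 2.62 and 1.69 in WT cord. Ptk2b, the kinase Pyk2, rose by 0.67, 1.04 and 1.74 in KO cord and by 0.49, 0.89 and 1.55 in WT cord.

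Further ligands and counter-receptors rose too. Of 5 tested laminin chain genes 0, 5 and 5 rose in KO cord and 4, 5 and 5 in WT cord, with Lama4 at 0.21, 1.93 and 1.50 in KO cord and 1.45, 2.63 and 2.12 in WT cord. Its genotype difference in the day 1 response, -1.24, did not pass. Lamb1 stood at 0.72, 2.07 and 1.56 from sham in KO cord and 1.78, 2.68 and 2.29 in WT cord, Lamb2 at 0.08, 0.86 and 1.43 and at 0.66, 1.21 and 1.46, and Lama2, the alpha chain of muscle and nerve laminin, at -0.49, 0.91 and 1.36 and at 0.04, 1.22 and 1.83, where the KO day 1 values of these chains and the WT day 1 value of Lama2 did not pass. Of 12 other matrix ligands 7, 10 and 11 rose in KO cord, with 1 fall at day 1, and 8, 11 and 12 rose in WT cord, with 1 fall at day 1. Tnc, tenascin-C, rose by 4.13, 4.59 and 2.80 in KO cord and by 4.03, 4.33 and 2.76 in WT cord, and Ccn1, a matrix-associated growth regulator, by 5.78, 5.0 and 3.02 in KO cord and by 5.82, 5.36 and 3.16 in WT cord. Tgfbi, a matrix protein induced by TGF-beta, rose by 3.61, 4.07 and 2.08 in KO cord and by 4.29, 4.42 and 2.94 in WT cord. Npnt, nephronectin, the ligand of alpha8, instead climbed through the week, by 0.66, 1.78 and 2.48 in KO cord and by 0.75, 1.57 and 2.46 in WT cord. Among 7 tested counter-receptors 3, 4 and 3 rose in KO cord and 5, 5 and 5 in WT cord. Icam1, the ligand of the beta2 integrins on vessel walls and glia, rose by 3.49, 3.58 and 3.32 in KO cord and by 3.62, 3.95 and 4.07 in WT cord. Every sham array of Icam1 lay under log2 4, so it passed the filter through injured arrays alone and a rise was built into its choice. Vcam1, the ligand of VLA-4, passed at days 3 and 7 in KO cord, at 0.89 and 0.88, and at all 3 days in WT cord, at 0.66, 0.79 and 1.18. F11r, the junction protein JAM-A that binds LFA-1, rose by 0.55, 1.77 and 1.80 in KO cord and by 0.58, 1.60 and 1.72 in WT cord. Icam2, an endothelial ligand of LFA-1, rose at days 1 and 3, by 1.18 and 1.47 in KO cord and by 1.60 and 1.74 in WT cord, and its day 7 differences, -0.46 and 0.26, did not pass.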

How the data were processed

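Total RNA of mouse spinal cord was read on 34 Affymetrix arrays in 8 groups. The authors deposited log2 values per probe set, summarised with GCRMA per the submitters' processing notes, with no version, filter or build given in the sources used here. Of 45101 probe sets, 34945 name a single gene. Values ran from 2.17 to 15.9, array medians from 4.138 to 4.391, and no arrays were identical. The number of arrays limits the precision.

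Each gene was read from its brightest probe set. Genes above log2 4 on at least 4 arrays (11993 of 18193) were fitted with limma 3.58.1 (R 4.3.3), 1 mean per group over all 8 groups and moderated variances, and p-values of each of 15 comparisons were adjusted over all genes by Benjamini-Hochberg (threshold 0.05). The fit was tested on simulated data. Where the lower group had an array under log2 4, values under 4 were set to 4 for the fold, written "at least". Comparisons with sham share the sham arrays of their genotype. Promoters came from RefSeq (GRCm38.p6), and Itgb2, Fn1 and Thbs1 had no entry used here.

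All 33 members were named, with the 4 genes of each pathway list that the rule gives. Members, lists and pathways were chosen with earlier results of these data known. The alternatives tried were no filter, a filter at log2 6, the mean of a gene's probe sets, quantile normalisation, a variance trend, values under 4 set to 4, a replicate block, only the groups compared, and leaving out each array. Leaving out both arrays that stand apart (KO sham replicate 2 and WT day 3 replicate 2) was added after seeing the data.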

Additional observations from a re-analysis of the deposited data

Results flagged for a closer look

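Within groups of 4 or 5 arrays, 13 of 155 gene and group combinations held an array far from the others by Dixon's criterion, where chance flags about 1 in 20. WT day 3 replicate 2 accounted for 3 of them: Itga5 at 6.24 (others 4.50 to 4.79), Itgb8 at 12.11 (others 12.46 to 12.52) and Thbs2 at 8.74 (others 9.27 to 9.34). KO sham replicate 1 had Itga4 at 4.08 (others 4.58 to 4.63) and Itga8 at 4.15 (others 3.71 to 3.74). KO day 7 replicate 1 had Itga8 at 4.92 (others 4.06 to 4.11) and Itgav at 12.68 (others 12.62 to 12.63). Itga5 stood at 4.22 on KO sham replicate 4 (others 4.11 to 4.13) and at 4.22 on KO day 7 replicate 4 (others 4.13 to 4.14). Itga6 was low on KO day 7 replicate 2, at 10.19 (others 10.35 to 10.38), and Itgb5 on WT day 1 replicate 5, at 8.96 (others 9.26 to 9.28). Thbs4 was 4.02 on WT day 1 replicate 2 (others 2.18 to 2.56). Itga4 on WT sham replicate 4, at 4.62, differed from the 4.61 of the others by no more than rounding shows.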

How the results depend on the processing

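Counts of called genes stayed within 1.5 times under each alternative, except for the genotype difference in the day 1 response. It called 1 gene in place of 0, Itga6, with a replicate block (-0.75, adjusted p = 0.0327) and without KO day 3 replicate 4 (-0.71, adjusted p = 0.0257), and the cause was not tested. Same-numbered arrays did not deviate together (median r 0.00439 over 113 pairs, 26 over 0.1), so the numbers do not pair the samples. Leaving out each array in turn gave 14 to 15, 17 to 20 and 14 to 16 calls in KO cord at days 1, 3 and 7 and 13 to 14, 15 to 17 and 18 to 19 in WT cord, 15 to 18 between days 1 and 3, 10 to 13 between days 3 and 7, 0 to 0 between KO and WT cord at each time, and 0 to 1, 0 to 0 and 0 to 0 for the genotype difference in response. Of 125 calls of single genes, the block kept 124, no filter 123, the mean of probe sets 123, quantile normalisation 124, the variance trend 125, the floor at 4 115, the groups compared alone 120 and leaving out both arrays that stand apart 119, while the filter at log2 6 kept all 96 that could be refitted. Thbs2 between days 3 and 7 reversed to 0.098 with the mean of its probe sets, since they oppose each other. The limits are array number, genes near the floor (Itgal, Itgax, Itgae, Itga7, Itga8, Thbs4), the library labelled KO sham replicate 2, which goes against its label, and whole-tissue RNA. Skeletal muscle RNA that differs between arrays and groups is a further limit.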
